A study of Mus musculus with 6 samples.

Results

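The genes of mitochondrial and peroxisomal fatty acid oxidation were examined in primary cortical cell cultures treated with vehicle or 10HDA, a medium-chain hydroxy fatty acid of royal jelly. A list of 42 mouse gene symbols was matched to the gene identifiers of the count table, and all 42 were found among its 43346 genes. By the main location of the encoded protein, 21 members were mitochondrial, 10 peroxisomal, 4 present in both organelles, and 7 were set apart as other. The last are Cpt1c, Slc22a5 and the 5 acyl-CoA synthetases, of which Acsl1 is also known from the outer mitochondrial membrane, where Cpt1a, counted as mitochondrial, resides. The cells were taken from cortex of fetuses at gestational day 15.5, labelled as the Cyp19-EGFP strain (a transgenic line with a fluorescent reporter of the aromatase gene) and as SRY+, and received DMSO or 1 mM 10HDA. The paper's methods give the strain as C57BL/6, which differs from the label, and the duration of treatment was not given in the sources used here. Cultures 1, 3 and 4 each gave 1 vehicle and 1 10HDA library, so that there were 3 libraries per treatment.

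Fatty acids are activated to acyl-CoA by acyl-CoA synthetases, and long chains enter mitochondria as carnitine esters. Inside, acyl-CoA dehydrogenases, hydratases, hydroxyacyl-CoA dehydrogenases and thiolases shorten the chain in repeated rounds, and electron transfer flavoprotein passes the electrons to the respiratory chain. Peroxisomes shorten very long and branched chains with their own oxidases, multifunctional enzymes and thiolase. In brain, fatty acid oxidation is known chiefly from astrocytes, while neurons rely mainly on glucose and lactate.

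The libraries held from 9144736 to 13367194 counts on genes. The SRY+ label did not describe the libraries fully. Those of culture 1 had 9.07 and 9.30 CPM (counts per 1000000 counts on the tested genes, scaled by the trimmed mean of M-values, TMM) in total for Ddx3y, Eif2s3y, Kdm5d and Uty on the Y chromosome, while those of cultures 3 and 4 had 97.8 to 136 CPM. All 6 libraries held Xist, the RNA of the inactive X chromosome of female cells, which reached 1032 (vehicle) and 1444 CPM (10HDA) in culture 1 and ranged from 403 to 843 CPM elsewhere. The marker genes of 11 cell types were summed in each library. Astrocyte markers ranged from 1800 to 2122 CPM with vehicle and from 1280 to 1605 CPM with 10HDA, and 5 of the 11 tested were called lower (7 with culture as a block). Markers shared by neurons ranged from 8585 to 9037 CPM with vehicle and from 7093 to 8070 CPM with 10HDA, with 0 of 10 called by edgeR (4 at an unadjusted p under 0.05, and 4 called lower with culture as a block). Those of intermediate progenitors ranged from 64.8 to 79.0 CPM and from 94.8 to 121 CPM, with 0 of 3 called (2 at an unadjusted p under 0.05, and 2 called higher with the block). Of 6 tested oligodendrocyte lineage markers, Cspg4 was called lower (log2 fold change -0.92, adjusted p = 0.043). With the block Pdgfra and Sox10 were as well (-1.26 and -1.53 in that fit). Olig1, Olig2 and Mbp were called in neither fit, with 0.059, 0.24 and -0.059 without the block. For Olig2 all 3 10HDA libraries were above all 3 vehicle libraries. Of the 8 excitatory neuron and 8 interneuron markers 0 were called (2 and 1 at an unadjusted p under 0.05). The blocked fit called 2 and 3 of them lower. With the block, 1 of 6 radial glia markers was called higher and 1 lower, and 0 of 5 markers of dividing cells were called. The only tested marker of endothelial cells and pericytes, Pdgfrb, was lower (15.7 and 7.38 CPM on average, adjusted p = 0.043). Of those under the filter, Pecam1 (0.93 and 0.47 CPM on average) and Kdr (1.08 and 0.63 CPM) were lower without overlap. Cdh5 had a lower mean as well, at or under 0.061 CPM, while Rgs5 and Cldn5 had slightly higher means with 10HDA, at or under 0.42 CPM. Of 5 meningeal fibroblast markers, all under the filter, Dcn did not overlap (9.18 and 4.49 CPM on average), and the other 4 did. Microglia markers summed to at most 1.10 CPM in any library, and Tmem119 was at 0 in all 6. Their part in the results that follow was not tested, and in RNA from whole cultures fewer cells of a type and less RNA per cell cannot be told apart.

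As a sum, the 21 mitochondrial members were expressed at a higher level in every 10HDA library than in any vehicle library. Their summed level was 443, 440 and 432 CPM in the vehicle libraries of cultures 1, 3 and 4, and 524, 511 and 507 CPM in the 10HDA libraries. The 10HDA to vehicle ratio of the sum was thus 1.18, 1.16 and 1.17 in cultures 1, 3 and 4. The 10 peroxisomal members summed to 352, 354 and 336 CPM with vehicle and to 378, 376 and 360 CPM with 10HDA. Those groups did not overlap either, and the ratios were 1.07, 1.06 and 1.07.

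The difference between the organelles was examined within each library, where the scaling between libraries cancels. The mitochondrial sum divided by the peroxisomal sum was 1.26, 1.24 and 1.29 in the vehicle libraries and 1.38, 1.36 and 1.41 in the 10HDA libraries. The 2 treatments did not overlap, with means of 1.26 ± 0.022 and 1.38 ± 0.024 (SD, n = 3 each). Within cultures 1, 3 and 4 the ratio with 10HDA was 1.10, 1.09 and 1.10 times that with vehicle. Without Hadha, the most abundant mitochondrial member, the ratio ran from 1.01 to 1.04 with vehicle and from 1.14 to 1.16 with 10HDA. The treatments also did not overlap with Acsl1 counted as mitochondrial (1.38 to 1.44 with vehicle and 1.47 to 1.57 with 10HDA) or without Cpt1a (1.19 to 1.21 and 1.28 to 1.32). No p is attached to these sums, because the members are not replicates, and because 3 libraries against 3 cannot give an exact permutation p below 0.1.

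**Figure D1:**
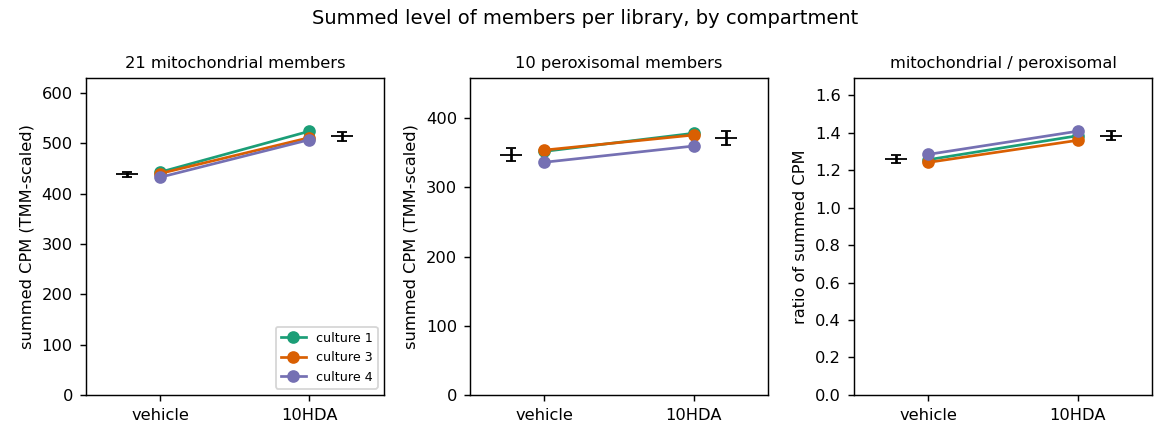
Summed level of the 21 mitochondrial members and of the 10 peroxisomal members, in TMM-scaled CPM, and the ratio of both sums. Each point is a library, lines join the libraries of a culture, and bars show mean and SD of 3 libraries. In each panel the 3 10HDA points lie above the 3 vehicle points, and the ratio moves from between 1.24 and 1.29 to between 1.36 and 1.41.

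Single genes were then compared with edgeR's quasi-likelihood test over the 10520 genes that reached 10 CPM in 3 libraries or more, of which 29 were members. Fold changes are on the log2 scale, positive where the level was higher with 10HDA, and SE is the standard error of the log2 fold change. Of the 29 members, 28 reached 10 CPM in all 6 libraries, the exception being Etfa. Etfa was under 10 CPM in the vehicle library of culture 4, so it met the filter only with its 10HDA libraries counted. It is part of the counts and medians that follow. Of the 29, 0 passed an adjusted p of 0.1, whereas 66 of all genes tested did (0.627%, with 0.2% higher and 0.428% lower). By DESeq2's test 1 member passed, Acadl, where 170 of all 10520 genes tested were called. By limma-voom 0 members and 66 of all genes tested passed. An unadjusted p under 0.05 was found for 6 members, all higher with 10HDA and all mitochondrial, and for 10.1% of all genes tested (4.4% higher and 5.67% lower). With culture as a block, 5 members passed, all of them higher and all mitochondrial, namely Cpt1a, Acadl, Hadh, Etfa and Etfb. In that fit 945 of all genes tested were called (8.98%, with 3.91% higher and 5.08% lower). With both libraries of culture 1 left out, 4 of the 5 still passed in the blocked fit, the exception being Etfa. Without culture 1 that fit called 711 of all genes tested.

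Among the tested members, the 14 mitochondrial genes had log2 fold changes from 0.049 to 0.66 with a median of 0.25, and all 14 were above 0. The 7 peroxisomal genes ranged from -0.0042 to 0.19 with a median of 0.14. Of all genes tested 47.9% were above 0, and their median was -0.0095. The difference of 0.11 between both organelles fell to 0.060 when Acsl1, at -0.077, was counted as mitochondrial, or when Cpt1a was left out, with a mitochondrial median of 0.20 in either case. Within cultures 1, 3 and 4 the mitochondrial median was 0.25, 0.25 and 0.22, and the peroxisomal median was 0.085, 0.059 and 0.099. Of the 14 mitochondrial members 11 were higher with 10HDA in 3 of 3 cultures, and 3 of the 7 peroxisomal members were, against 18.6% of all genes tested. Over all members without the expression filter, the medians were 0.31 for the 21 mitochondrial and 0.15 for the 10 peroxisomal genes.

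**Figure D2:**
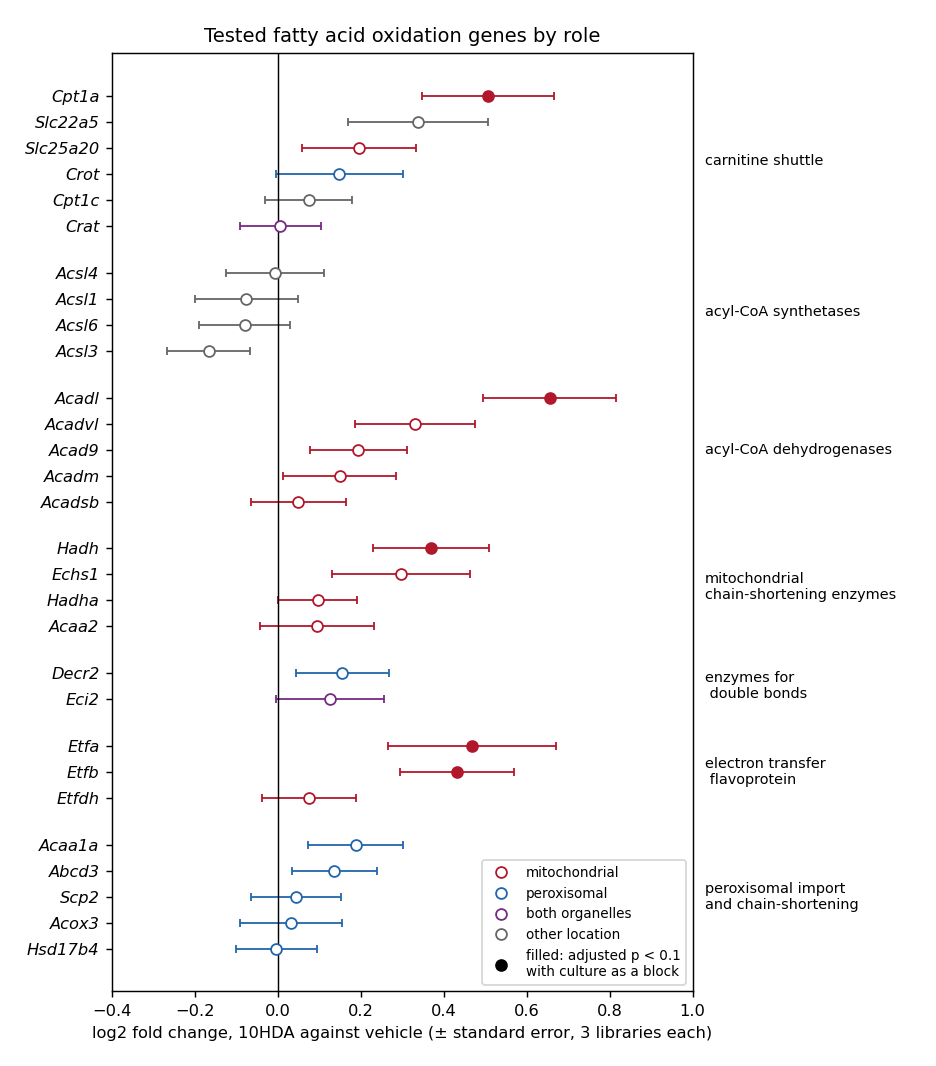
Log2 fold change (10HDA against vehicle) with its SE for the 29 tested members, arranged by role and coloured by the location of the protein. Filled points are the 5 genes past an adjusted p of 0.1 with culture as a block, which are all mitochondrial. The acyl-CoA synthetases lie from -0.17 to -0.0075.

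**Figure D3:**
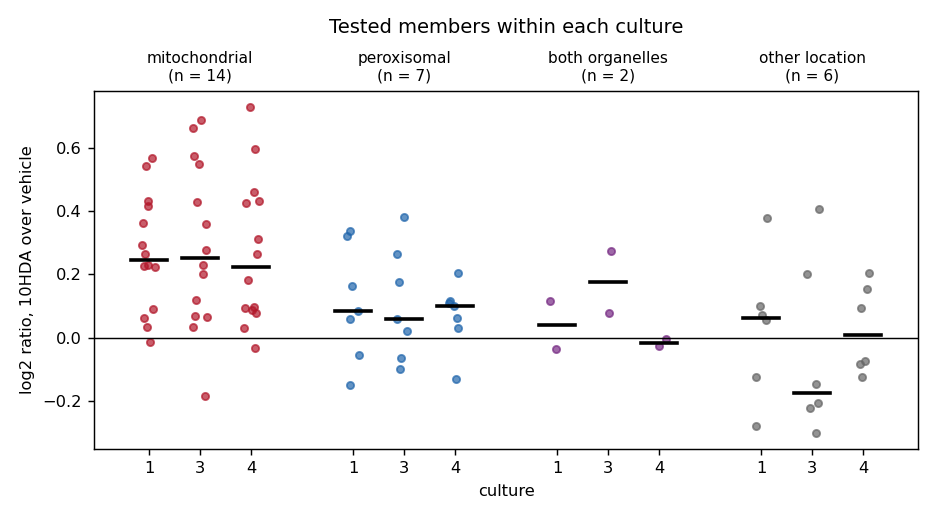
Log2 ratio of 10HDA over vehicle within each culture for every tested member, grouped by location. Each point is a gene and the black bar is the median. The mitochondrial medians lie between 0.22 and 0.25 and the peroxisomal medians between 0.059 and 0.099.

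Among the genes of the carnitine shuttle, Cpt1a rose with culture as a block. It encodes the carnitine palmitoyltransferase of the outer mitochondrial membrane that controls the entry of long chains. Its level was 18.8, 20.1 and 25.6 CPM in the vehicle libraries of cultures 1, 3 and 4 and 25.4, 31.9 and 34.4 CPM with 10HDA. The lowest 10HDA library, of culture 1, lay just under the highest vehicle library, of culture 4, and each culture was higher with 10HDA. The log2 fold change was 0.51 (SE 0.16, adjusted p = 0.31) without a block and 0.51 (SE 0.12, adjusted p = 0.0071) with it. Cpt1a (ENSMUSG00000024900.4) lies on chromosome 19 of GRCm38 from 3322334 to 3385733.

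The other carnitine palmitoyltransferase genes did not pass in either fit or were under the filter. Cpt1c, the form of neurons, which resides in the endoplasmic reticulum, had 68.1, 64.2 and 64.5 CPM with vehicle and 71.7, 73.9 and 61.2 CPM with 10HDA. The treatments overlapped, and the log2 fold change was 0.073 (SE 0.11, adjusted p = 0.82). Per kilobase of exon it was the most abundant of the 3, at 23.5 CPM per kb with vehicle against 5.00 for Cpt1a and 0.14 for Cpt1b, the muscle form. Cpt1b had 0.27 to 0.62 CPM with vehicle and 0.45 to 0.89 CPM with 10HDA, where 3 counts correspond to 0.22 to 0.34 CPM. Most of its 50-base windows (78.6%) also occur in an overlapping read-through gene, which is not among the genes counted. Cpt2, the inner membrane enzyme, was under the filter with 4.95 ± 0.62 and 5.19 ± 0.92 CPM (SD, n = 3 each). Slc22a5, the plasma membrane carnitine transporter, had a log2 fold change of 0.34, and Slc25a20, the carnitine-acylcarnitine carrier, one of 0.20 (adjusted p = 0.53 and 0.64). Crot and Crat, the carnitine acyltransferases for medium and short chains, had 0.15 and 0.0053.

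The 4 tested acyl-CoA synthetases had log2 fold changes below 0, and 0 of them had an unadjusted p under 0.05. Of all genes tested, 47.9% were above 0. The value of Acsl4 was above 0 with DESeq2's size factors or library size alone as the scaling. Acsl3, a synthetase of the endoplasmic reticulum and lipid droplets, was the most abundant per kilobase, with 34.7 CPM per kb with vehicle. It had 155, 141 and 157 CPM with vehicle and 128, 128 and 148 CPM with 10HDA, lower in each culture but with the culture 4 10HDA library above the culture 3 vehicle library. Its log2 fold change was -0.17 (SE 0.10, adjusted p = 0.58). Acsl1, Acsl4 and Acsl6 had -0.077, -0.0075 and -0.081, and Acsl5 was under the filter at 6.13 and 5.34 CPM on average. Within cultures, Acsl4 was higher with 10HDA in 2 of 3, and Acsl1 and Acsl6 in 1 of 3 each.

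Of the acyl-CoA dehydrogenases, which carry out the opening step of each round, Acadl had the largest log2 fold change of all tested members. It encodes the long-chain enzyme. Its level was 22.2, 17.9 and 24.4 CPM with vehicle and 32.4, 29.0 and 40.5 CPM with 10HDA, and all 3 10HDA libraries were above all 3 vehicle libraries. The log2 fold change was 0.66 (SE 0.16, adjusted p = 0.17), and 0.66 (SE 0.11, adjusted p = 0.00058) with culture as a block. It also passed in DESeq2's test (adjusted p = 0.018), and the log2 fold change stayed between 0.51 and 0.77 under the removal of any library or culture. Acadl (ENSMUSG00000026003.5) lies on chromosome 1 from 66830839 to 66863277, and 0% of its 50-base windows occur in another gene. Its gain of 12.4 CPM was 16.4% of that of the mitochondrial sum, although it made up 4.90% of that sum with vehicle.

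The enzymes for other chain lengths had smaller values. Acadvl, for very long chains, had 12.7, 11.4 and 12.0 CPM with vehicle and 15.6, 16.8 and 12.8 CPM with 10HDA, without overlap, and a log2 fold change of 0.33 (SE 0.15, adjusted p = 0.48). Its exons share 42.9% of their bases with Dvl2 on the other strand. Acadm, for medium chains, had a log2 fold change of 0.15 (adjusted p = 0.71), with 23.1, 19.3 and 20.2 CPM against 24.1, 20.3 and 25.1 CPM. Acads, for short chains, was under the filter with 4.58, 4.80 and 4.33 CPM against 6.05, 6.41 and 7.74 CPM, which did not overlap. With the filter lowered to 1 CPM it had a log2 fold change of 0.56 (adjusted p = 0.32). Acadsb, for short branched chains, was the most abundant of the tested dehydrogenases per kilobase with vehicle, at 14.3 CPM per kb against 10.7 for Acadl. With 10HDA Acadl was above it, at 16.9 against 14.8 CPM per kb. Its log2 fold change was 0.049 (SE 0.11), with 59.8, 64.8 and 66.7 CPM against 69.9, 57.0 and 71.3 CPM. Acad9, which is also an assembly factor of respiratory complex I, had 0.19, while Acad10 and Acad11 were under the filter.

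Among the enzymes that follow in each round, Hadh rose with culture as a block. It encodes the hydroxyacyl-CoA dehydrogenase for short and medium chains. It had 22.4, 17.5 and 17.4 CPM with vehicle and 26.3, 23.6 and 24.0 CPM with 10HDA, without overlap between treatments. The log2 fold change was 0.37 (SE 0.14, adjusted p = 0.42), and 0.37 (SE 0.12, adjusted p = 0.065) with the block. Echs1, the short-chain enoyl-CoA hydratase, differed between cultures, with 40.9, 45.2 and 35.6 CPM with vehicle and 54.7, 58.0 and 36.3 CPM with 10HDA. Its log2 fold change was 0.30 (adjusted p = 0.56), and it passed once the 10HDA library of culture 4 was left out, with 0.47 (adjusted p = 0.093). With that library left out, 350 of all 10520 genes tested were called, and Echs1 was the only member among them. Acaa2, the mitochondrial thiolase, had 0.094.

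Both subunits of the trifunctional protein, which handles long chains, are in the list, and their counts differed widely. Hadha had 84.8, 80.6 and 83.6 CPM with vehicle and 86.9, 84.4 and 94.9 CPM with 10HDA, with a log2 fold change of 0.095 (SE 0.095). Hadhb, its neighbour on chromosome 5, was under the filter with 4.52 ± 0.58 and 4.87 ± 0.97 CPM (SD, n = 3 each). Per kilobase this was 0.69 against 15.5 CPM per kb with vehicle. Of the 50-base windows of Hadhb, 19.7% occur in another gene, nearly all of them in Gm13910, a processed pseudogene on chromosome 2. Gm13910, looked up after the level of Hadhb was seen, had 16.5, 20.4 and 13.7 CPM with vehicle and 23.3, 25.1 and 20.4 CPM with 10HDA. Its log2 fold change was 0.44 (adjusted p = 0.40, and 0.029 with culture as a block). Whether reads of Hadhb and of its copy were divided in the counting was not tested, and the level of Hadhb is uncertain.

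Electron transfer flavoprotein, the acceptor of electrons from the acyl-CoA dehydrogenases, was the role with the highest median, at 0.43 over its 3 genes. These include Etfa, which met the filter only with its 10HDA libraries counted. Both subunit genes rose with culture as a block. Etfa had 10.9, 14.5 and 8.33 CPM with vehicle and 16.2, 17.5 and 12.7 CPM with 10HDA, so that the vehicle library of culture 3 was above the 10HDA library of culture 4, while each culture was higher with 10HDA. Its log2 fold change was 0.47 (SE 0.20, adjusted p = 0.47, and 0.047 with the block). Etfb had 16.9, 15.4 and 13.9 CPM with vehicle and 20.3, 23.0 and 18.8 CPM with 10HDA, without overlap. Its log2 fold change was 0.43 (SE 0.14, adjusted p = 0.31, and 0.042 with the block). Of its exon bases 53% also belong to Gm45233, an overlapping gene of the same strand in GENCODE M21, which is not among the genes counted. Etfdh, the membrane enzyme that passes the electrons on to ubiquinone, had 29.1, 30.1 and 33.1 CPM against 34.0, 30.8 and 32.4 CPM and a log2 fold change of 0.074 (SE 0.11).

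**Figure D4:**
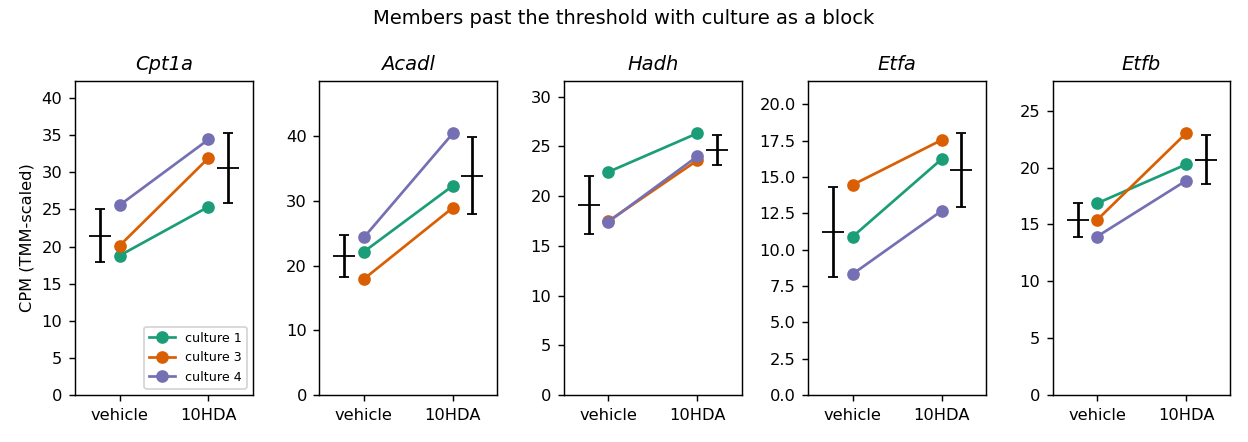
Level (TMM-scaled CPM) of the 5 members past an adjusted p of 0.1 with culture as a block. Points are libraries, lines join the vehicle and 10HDA library of a culture, and bars show mean and SD of 3 libraries. In each gene all 3 cultures are higher with 10HDA, and the treatments do not overlap for Acadl, Hadh and Etfb.

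Enzymes that deal with double bonds were mostly of low abundance. Decr2, the peroxisomal dienoyl-CoA reductase, had 30.8, 27.1 and 28.9 CPM with vehicle and 32.6, 32.5 and 31.3 CPM with 10HDA, without overlap, and a log2 fold change of 0.15 (SE 0.11, adjusted p = 0.65). Eci2, an enoyl-CoA isomerase of both organelles, had 0.13. The mitochondrial isomerase Eci1 was under the filter with 4.85, 6.57 and 5.10 CPM against 7.98, 8.63 and 6.84 CPM, which did not overlap. With the filter at 1 CPM its log2 fold change was 0.52 (adjusted p = 0.37). Decr1, the mitochondrial dienoyl-CoA reductase, and Pecr, a peroxisomal enoyl-CoA reductase, had 0.21 and 0.15 at that filter.

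The peroxisomal import and chain-shortening genes had a median of 0.043 over 5 tested members, and 0 of them passed by edgeR with or without the block, with 0 at an unadjusted p under 0.05. Abcd3, a transporter of the peroxisomal membrane, was the most abundant per kilobase, at 26.9 CPM per kb. It had 86.0, 99.5 and 88.8 CPM with vehicle and 108, 101 and 92.7 CPM with 10HDA, a log2 fold change of 0.14 (SE 0.10, adjusted p = 0.66). Acaa1a, a peroxisomal thiolase, had 54.3, 48.8 and 47.4 CPM with vehicle and 56.6, 63.6 and 50.8 CPM with 10HDA, with 0.19 (SE 0.11, adjusted p = 0.59), and 17.1% of its 50-base windows also occur elsewhere, mostly in its paralog Acaa1b. Scp2, the sterol carrier protein and thiolase, had 0.043, and 29.7% of its windows occur in a pseudogene. Acox3, an oxidase for branched chains, had 0.031. Hsd17b4, the multifunctional enzyme for very long and branched chains, had 74.6, 69.8 and 66.2 CPM against 71.9, 66.7 and 71.4 CPM and a log2 fold change of -0.0042 (SE 0.098), which was above 0 under the other scalings. Ehhadh, the other multifunctional enzyme, was near the limit of detection with 0.34 to 0.54 CPM and 0.34 to 0.70 CPM. Abcd2 and the racemase Amacr were also under the filter.

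In all, 13 members were under the filter, with group means from 0.45 to 8.39 CPM. The mean was higher with 10HDA for 12 of the 13, and for Acads and Eci1 the treatments did not overlap. The same shares over all genes under the filter were not computed, so these counts have no background to be read against. Of all genes tested, 5.96% had all 3 10HDA libraries above the 3 vehicle libraries and 7.44% had all 3 below. Among the 29 tested members these were 5 (Acadvl, Acadl, Hadh, Decr2 and Etfb) and 0.

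Genes of the same pathways outside the list were counted in 7 groups, with 55 of 74 tested. Of these 0 passed in the fit without a block (8 at an unadjusted p under 0.05, and 0 called by DESeq2 or limma-voom), and 4 passed with culture as a block, 2 higher and 2 lower. These 4 of 55 were no larger a share than the 8.98% of all genes tested that passed in that fit. Those higher were Pex6, an ATPase of peroxisomal protein import, at 0.33 (adjusted p = 0.058), and Acad8, the isobutyryl-CoA dehydrogenase, with 0.37 (adjusted p = 0.090). Those lower were Acot7, a cytosolic acyl-CoA thioesterase of neurons, with -0.34 (adjusted p = 0.041), and Bdh1, the hydroxybutyrate dehydrogenase of ketone body use, with -0.27 (adjusted p = 0.091). These 4 fold changes are from the fit without a block and the adjusted p from that with it. The genes with the smallest p in 4 groups where none of these came first were Abcd4 with 0.41, Hibch with 0.34, Esrra with 0.19 and Acaca with -0.14, for other peroxisomal enzymes, branched-chain enzymes, regulators and malonyl-CoA control respectively (adjusted p = 0.40, 0.45, 0.64 and 0.64 without a block). The medians of the 7 groups, over tested genes, ran from -0.088 for ketone body enzymes to 0.15 for regulators. Under the filter, Pdk4 of the regulators was lower without overlap (2.11 and 1.05 CPM on average). So was the thioesterase Acot11 (6.55 and 4.23 CPM), while Acot8 was higher without overlap (8.92 and 9.75 CPM). Ppara, the nuclear receptor for fatty acids that is best known for inducing these enzymes in liver, was under the filter with 0.72 ± 0.16 and 0.83 ± 0.21 CPM.

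The promoters of the members were searched for letters bound by factors known from fatty acid oxidation and mitochondrial genes, on both strands of 300-base windows from RefSeq on GRCm38.p6. Windows were available for 34 members (38 windows). The PPAR-RXR element, in which AGGTCA stands as a direct repeat with 1 base between the copies, occurred in 0 of the member windows, in 0.0396% of all windows and in 0.0395% of those of genes tested. The half-site AGGTCA alone, which this element and the ERR element contain, occurred in 7 member windows (18.4%), in 16.3% of all windows and in 11.2% of the windows of genes tested here. The NRF1 motif, GCGCA followed by any base and GCGC, occurred in 5 member windows (13.2%), in 4.6% of all windows and in 10.7% of those of genes tested. The 250 bases before a RefSeq start of 3 members that passed with the block are shown, because Acadl and Cpt1a had the largest log2 fold changes and Etfb held an NRF1 match next to its start. They are Acadl at chr1:66863310-66863559 on the minus strand, Cpt1a at chr19:3323051-3323300 on the plus strand and Etfb at chr7:43443822-43444071 on the plus strand, each 5′ to 3′. The window of Cpt1a belongs to a RefSeq start that lies inside the gene as GENCODE M21 gives it, so these bases are within its annotated span. Capitals mark the half-site in Cpt1a, in reverse orientation, and the NRF1 match in Etfb, and Acadl held none of the 5 motifs searched.
Acadl: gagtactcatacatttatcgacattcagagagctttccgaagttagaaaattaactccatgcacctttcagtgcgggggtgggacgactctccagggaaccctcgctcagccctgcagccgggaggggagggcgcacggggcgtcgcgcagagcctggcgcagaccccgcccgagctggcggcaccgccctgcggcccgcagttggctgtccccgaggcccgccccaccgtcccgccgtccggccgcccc
Cpt1a: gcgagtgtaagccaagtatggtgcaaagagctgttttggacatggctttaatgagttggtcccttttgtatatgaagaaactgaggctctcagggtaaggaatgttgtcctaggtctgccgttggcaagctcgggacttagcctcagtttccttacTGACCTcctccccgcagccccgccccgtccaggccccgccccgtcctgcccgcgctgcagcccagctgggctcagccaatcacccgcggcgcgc
Etfb: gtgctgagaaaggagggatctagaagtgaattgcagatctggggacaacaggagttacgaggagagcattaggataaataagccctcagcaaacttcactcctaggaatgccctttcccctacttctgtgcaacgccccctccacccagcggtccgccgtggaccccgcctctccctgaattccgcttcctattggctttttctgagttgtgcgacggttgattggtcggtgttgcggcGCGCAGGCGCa
The ERR element TCAAGGTCA occurred in 1 member window, of Acsl6 (2.63%), in 0.423% of all windows and in 0.237% of those of genes tested. The antioxidant response core TGACNNNGC occurred in 3 (7.89%), against 12.4% and 14.1%. A match is a description of the letters only.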

How the data were processed

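RNA from 6 libraries of primary mouse cortical cultures was analysed. The authors aligned untrimmed 50 bp single-end reads to mm10 with Subjunc 1.4.4 and assigned them to Gencode genes with featureCounts. The deposited values are raw counts, neither normalized nor filtered, with the exon length of each gene. The library kit was strand-specific, while the strand setting of the counting is not given in the sources used here, so reads of overlapping antisense genes cannot be assigned with certainty. Symbols and coordinates are from GENCODE M21 (GRCm38), which matched 98% of identifiers, and 1 listed gene, Tmlhe, was not matched.

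Genes that reached 10 CPM in 3 or more libraries were compared with edgeR 4.0.16 in R 4.3.3 (TMM scaling, glmQLFit and glmQLFTest, Benjamini-Hochberg over all 10520 genes, threshold 0.1), following the filter, scaling and threshold of the paper's methods. CPM are per 1000000 TMM-scaled counts on tested genes. Each SE is the absolute log2 fold change over the square root of F, and ratios within a culture used a prior count of 2. Depth ranged from 9144736 to 13367194 counts, and 3 counts correspond to 0.22 to 0.34 CPM, a limit that covers counting error only. The labels number the cultures without saying whether they came from separate animals, so p-values measure the spread between these libraries. The labels pair the libraries by culture. Deviations of both libraries of a culture from their treatment means correlated at 0.37, 0.24 and 0.62 across genes, which are not independent. Windows of 50 bases were compared with all GENCODE M21 transcripts. Promoters were from RefSeq.

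Members, roles and lists were chosen with earlier results of these data known. Values for each library were given for members past the threshold in either fit, for those with the smallest p and the most CPM per kb of each role, and for Cpt1a, Cpt1b and Cpt1c. Of other pathway genes, those past the threshold and the smallest p of each list were named. Ppara, Pdk4, Acot8, Acot11, Gm13910 and further members were named after their values were seen. The fit was tested on simulated data. Alternatives were DESeq2 1.42.0 (size factors and test), limma 3.58.1 (voom), library size alone, other filters, a stricter threshold (0.05), the culture block, leaving out each library or culture, and the assignment of members to organelles.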

Additional observations from a re-analysis of the deposited data

How the results depend on the processing

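With 3 libraries per treatment, counts of calls moved far more than fold changes did. The 66 genes called over all genes became 945 with culture as a block, 711 with the block and without culture 1, 636 without the expression filter, 170 with DESeq2's test and 43 at a threshold of 0.05. With library size alone 45 were called, 21 higher and 24 lower, against 21 higher and 45 lower with TMM. They ran from 0 without the 10HDA library of culture 1 (469 at an unadjusted p under 0.05), and 0 without culture 3, to 350 without that of culture 4. The 0 members called became 5 with the block, 4 with the block and without culture 1, 2 without the filter (Cpt1a and Acadl) and 1 with DESeq2's test (Acadl), remained 0 by limma-voom, and ran from 0 to 1 with libraries or cultures left out. The 0 other pathway genes became 4 with the block and 1 with the block and without culture 1, and stayed at 0 with libraries or cultures left out.

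The median of the mitochondrial members was above 0 under every alternative run. From 0.25 it became 0.32 with library size alone, 0.31 without the filter and 0.19 with the members of both organelles counted in, and ran from 0.19 to 0.32 with libraries or cultures left out. The peroxisomal median of 0.14 became 0.21 with library size alone and 0.058 with the block and without culture 1, and ran from 0.068 (without culture 1) to 0.17. Library size alone also moved the median of all genes from -0.0095 to 0.067. The difference of both medians, 0.11, became 0.16 without the filter, 0.059 with the members of both organelles counted as mitochondrial and 0.19 with the block and without culture 1, and ran from 0.079 (without the vehicle library of culture 4) to 0.20 (without that of culture 1). With Acsl1 counted as mitochondrial, and likewise without Cpt1a, the mitochondrial median was 0.20 and the difference 0.060. The ratio of the summed levels, 1.10 times higher with 10HDA, became 1.12 without Hadha, 1.08 with Acsl1 and 1.09 without Cpt1a, alternatives chosen after the data were seen, and ran from 1.09 to 1.11 with libraries or cultures left out. The cause of these shifts was not tested.

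Of the 29 tested members, those that changed sign lay near 0. Acsl4 had 0.0036 with DESeq2's size factors, 0.065 with library size alone, 0.0046 with a filter of 1 CPM, 0.00014 without a filter and 0.0037 with DESeq2's test. Hsd17b4 had 0.0077, 0.070, 0.0082, 0.0034 and 0.0076 under the same alternatives, and 0.038 with the block and without culture 1, where Acadsb had -0.029 and Acox3 -0.018. With libraries or cultures left out, the log2 fold changes ran from -0.13 to 0.13 for Acsl4, -0.053 to 0.064 for Hsd17b4, -0.20 to 0.026 for Acsl1, -0.15 to 0.019 for Acsl6, -0.031 to 0.048 for Crat, -0.022 to 0.16 for Acadsb, -0.017 to 0.097 for Acox3 and -0.035 to 0.15 for Scp2. Low counts limited the 13 members under the filter.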
